A study of Mus musculus with 35 samples.

Results

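The 10 genes described here encode cytosolic heat shock chaperones and the co-chaperone BAG3. They are *Hspa1a*, *Hspa1b* and *Hspa8* of the HSP70 family, the HSP110 member *Hsph1*, *Hsp90aa1*, the J-domain genes *Dnajb1* and *Dnajb4*, the small heat shock protein genes *Hspb1* and *Hspb8*, and *Bag3*. They were chosen by name, as the answer that a blocked proteasome would be thought to call up, and they are 10 of the 33292 gene entries in the expression table. All 10 passed the filter on low values in all 12 comparisons. The choice was made with earlier results of the same mice known, so the p-values below come from fits over all genes that passed the filter, and no test was made over the 10 genes as a set.

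Podocytes of 35 mice, each sequenced as its own library, were compared across 3 genotypes and 2 treatments. The genotypes were *Lmx1b* +/lox (labelled WT), *Lmx1b* H77L/lox and *Lmx1b* C118F/lox. H77L and C118F are single amino acid exchanges in the first and second LIM domain of LMX1B, a transcription factor that podocytes need throughout life. All groups shared the floxed *Lmx1b* allele, transgenes for rtTA and tetO::Cre, which make Cre in podocytes once doxycycline is present, and the mT/mG reporter, which turns cells green after Cre has acted. The control podocytes therefore kept 1 wild-type allele, and those of the knock-in lines kept only the mutated one. Mice of 7 to 10 weeks received doxycycline at 2 mg/ml in the drinking water and intraperitoneal bortezomib (Btz) at 0.3 μg/g every other day, or its solvent DMSO, and green cells were sorted on day 7. Each of the 6 groups held 6 mice, except for the Btz-treated C118F/lox mice with 5. The sex of each mouse was not used here, and mice are numbered within a group in the order of the deposited samples.

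The cytosolic heat shock system works as a chain. J-domain proteins such as DNAJB1 and DNAJB4 hand unfolded proteins to HSP70, HSP110 and BAG proteins release the bound nucleotide so that the client is set free, HSP90 finishes the folding of selected clients, and small heat shock proteins such as HSPB1 and HSPB8 hold unfolded chains without using ATP. BAG3 links HSP70 to HSPB8 and to selective autophagy, which in podocytes and muscle takes part in the turnover of filamin and other proteins of the actin cytoskeleton. *Hspa1a*, *Hspa1b*, *Dnajb1*, *Hspb1*, *Hsph1* and *Bag3* are known targets of the heat shock factor HSF1, whereas *Hspa8* is made constitutively. Bortezomib blocks the chymotrypsin-like activity of the 20S proteasome, and in many cell types unfolded proteins then activate HSF1.

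Upstream sequences were read for these genes because HSF1 binds repeats of the unit nGAAn in alternating orientation. In the RefSeq promoter table for GRCm38.p6, an older build than the GRCm39 of the expression table, 8 of the 10 genes had an entry; *Hspa8* and *Hsp90aa1* had none. The 250 bases before each start were searched on both strands for 2 opposed units, GAANNTTC or TTCNNGAA, each of which is its own reverse complement. Of 32851 promoters, 6.69% held GAANNTTC, 7.17% held TTCNNGAA and 12.84% held either. At least 1 promoter of 5 of the 8 genes held a match. These 8 genes had 11 listed promoters, and the 32851 promoters belonged to 27025 gene symbols. The shares above are per promoter, so the count per gene cannot be set directly against them. The 150 bases before the start are given for the 4 genes with a match upstream of their first listed start, so that the shared site of *Hspa1a* and *Hspa1b* can be set beside those of *Hspb1* and *Hsph1*, with the matches in capitals and the strand that of the gene. *Hspa1a* lies at chr17:34972157-34972306 (minus strand), *Hspa1b* at chr17:34959239-34959388 (minus strand), *Hspb1* at chr5:135887769-135887918 (plus strand) and *Hsph1* at chr5:149636337-149636486 (minus strand).
Hspa1a: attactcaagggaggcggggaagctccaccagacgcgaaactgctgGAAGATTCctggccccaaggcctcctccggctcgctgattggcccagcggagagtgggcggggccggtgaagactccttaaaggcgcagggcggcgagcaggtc
Hspa1b: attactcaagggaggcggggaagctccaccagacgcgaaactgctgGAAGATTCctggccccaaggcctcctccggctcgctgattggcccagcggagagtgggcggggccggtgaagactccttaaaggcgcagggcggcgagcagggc
Hspb1: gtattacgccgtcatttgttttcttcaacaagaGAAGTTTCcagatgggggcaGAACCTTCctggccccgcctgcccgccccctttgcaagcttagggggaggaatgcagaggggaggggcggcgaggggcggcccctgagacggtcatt
Hsph1: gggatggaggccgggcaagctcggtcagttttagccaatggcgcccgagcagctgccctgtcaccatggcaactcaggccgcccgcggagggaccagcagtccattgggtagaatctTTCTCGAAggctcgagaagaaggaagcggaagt
The match of *Hspa1a* and *Hspa1b* began at -104, those of *Hspb1* at -117 and -97, and that of *Hsph1* at -33, where -1 is the last base before the start. The upstream bases of *Hspa1a* and *Hspa1b* were identical at 247 of 250 positions and differed by C-207T, T-204C and T-2G (base of *Hspa1a*, position from the start, base of *Hspa1b*). *Dnajb4* had a match at -14 of its second listed start only, and *Dnajb1*, *Hspb8* and *Bag3* had none in this window. These matches are a description of the sequence.

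*Hspa1a* and *Hspa1b* also share much of their transcripts. *Hspa1a* (ENSMUSG00000091971, chromosome 17 from 35188166 to 35191132 in GRCm39) and *Hspa1b* (ENSMUSG00000090877, chromosome 17 from 35175412 to 35178214) are neighbouring genes on the minus strand, and 58.8% of the stretches of 50 bases in *Hspa1a* also occur in *Hspa1b*. The authors kept 1 placement for a read that fits several sites, so how reads were split between both genes is uncertain. Their sum was tested as well. The ratio of *Hspa1b* to *Hspa1a* had a median of 1.15 over the 35 mice and ranged from 0.274, in a Btz-treated +/lox mouse, to 1.83.

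The other 8 genes lie apart from each other in GRCm39. *Dnajb1* (ENSMUSG00000005483) spans 84334811 to 84339820 of chromosome 8, *Dnajb4* (ENSMUSG00000028035) spans 151884148 to 151916665 of chromosome 3 and *Bag3* (ENSMUSG00000030847) spans 128125283 to 128148705 of chromosome 7. *Hspb1* (ENSMUSG00000004951) spans 135916760 to 135918417, *Hspb8* (ENSMUSG00000041548) 116546409 to 116561084 and *Hsph1* (ENSMUSG00000029657) 149537636 to 149560156, all on chromosome 5. *Hspa8* (ENSMUSG00000015656) spans 40711630 to 40731039 of chromosome 9 and *Hsp90aa1* (ENSMUSG00000021270) 110656842 to 110669166 of chromosome 12.

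Levels are given as TPM, a share of all transcripts in a library that is corrected for gene length. Depth was estimated from the steps of the values. It had a median of 19166291 reads over the mice, and the lowest and highest were 5268814 and 24148459. The lowest belonged to a Btz-treated C118F/lox mouse (mouse 2), and the next lowest mouse had 14037615 reads. On this estimate *Bag3*, the gene of lowest level among the 10, had between 182 and 1666 reads per mouse, and each of the others had at least 345 in every mouse. The spread between mice was used as the error, since reads from amplified libraries are not independent molecules.

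Over all 35 mice, *Hspb1* and *Hspa8* had the highest mean levels of the 10, with 967.4 and 916.6 TPM. *Hspa1b* followed with 545.7, *Hspa1a* with 455.7, *Hspb8* with 421.2, *Hsp90aa1* with 355.7, *Dnajb1* with 301.6, *Dnajb4* with 157.1, *Hsph1* with 62.63 and *Bag3* with 47.53 TPM. The ranges of neighbours in this order overlapped over the 35 mice, those of *Dnajb4* and *Hsph1* only between 72.02 and 130.3 TPM. The genes also differed in how much mice of 1 group varied. Among DMSO-treated +/lox mice the highest level was 12.41-fold the lowest for *Hspa1a*, 9.541-fold for *Hspa1b* and 14.92-fold for *Dnajb1*, whereas it was 1.473-fold for *Hspb8*, which stayed between 269.7 and 532.2 TPM in all 35 mice.

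**Figure D1:**
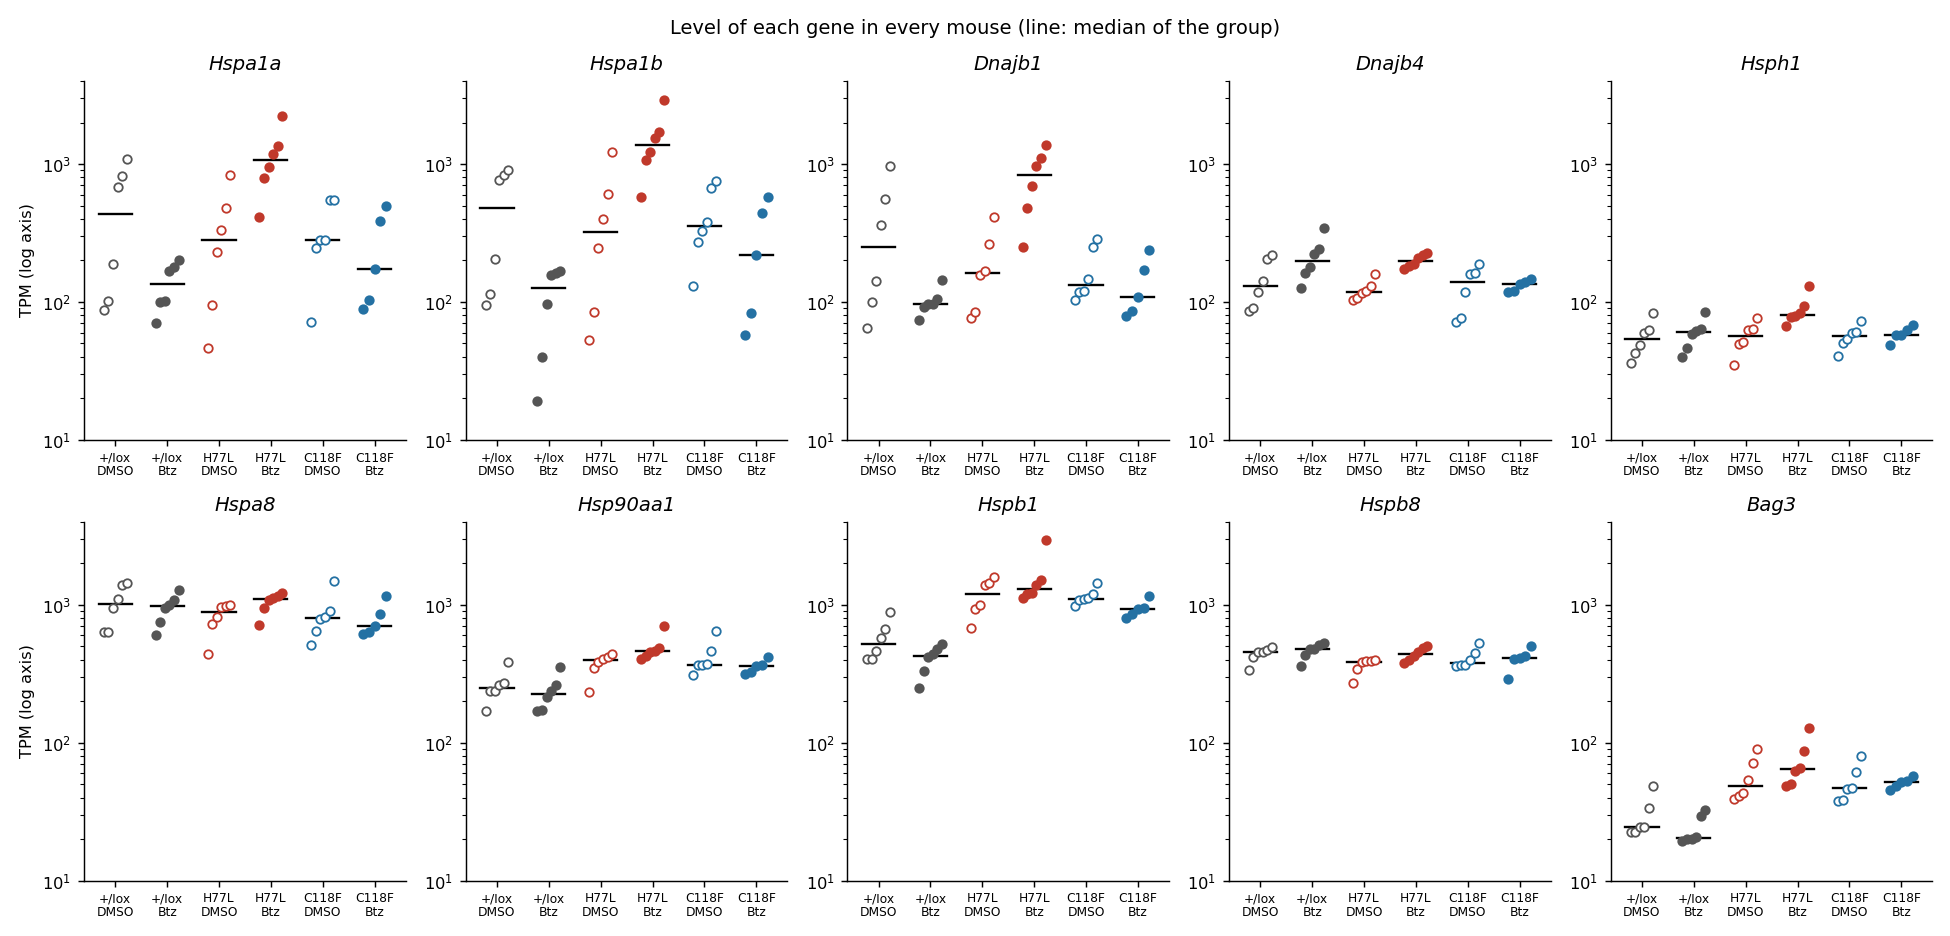
Level of each of the 10 genes in TPM (vertical log axis) in the 6 groups, 1 point per mouse, open points for DMSO and filled points for bortezomib, with a line at the median of the group. *Hspa1a*, *Hspa1b* and *Dnajb1* were highest in Btz-treated H77L/lox mice, with medians of 1069, 1386 and 832.2 TPM, and *Hspb1* and *Bag3* were higher in the knock-in groups than in both +/lox groups.

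The label of the cells was checked against marker genes. The 11 podocyte markers summed to a median of 35150 TPM in DMSO-treated +/lox mice, and none of them was listed at 0 in any of the 35 mice. Of the 9 leukocyte genes, *Ptprc* and *Cd3e*, which define leukocytes and T cells, were listed at 0 in 24 and 33 of the 35 mice, and *Cd52*, *C1qa*, *C1qb* and *Tyrobp* in 18 to 23. *Lyz2* was at 0 in 9 mice and *Cd74* in 1, and *Csf1r*, a receptor of macrophages, was at 0 in none, with a median of 8.68 TPM. The tubule list, led by *Miox*, had a median sum between 15.87 and 117 TPM in the groups. Some mice stood above their groups. The tubule sum reached 1591 TPM in a DMSO-treated +/lox mouse, the leukocyte sum (led by *Lyz2*) reached 501.5 TPM in that group, and the mesangial and vascular smooth muscle sum reached 3188 TPM in a DMSO-treated C118F/lox mouse. Of the genes in that last list, the highest level over the 35 mice was 2166 TPM for *Ren1* and 903.3 TPM for *Des*. The endothelial sum, led by *Ehd3*, had group medians between 15.28 and 25.71 TPM and reached 159.2 TPM in a DMSO-treated C118F/lox mouse. The part of these cells in the results below was not tested. In bulk podocytes, fewer cells that make a transcript and less transcript per cell cannot be told apart.

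The first question was whether bortezomib raised the chaperones within a genotype. In H77L/lox mice the J-domain genes *Dnajb1* and *Dnajb4* rose with bortezomib, *Dnajb1* 4.31-fold and *Dnajb4* 1.63-fold. The inducible HSP70 genes *Hspa1a* and *Hspa1b* stood 4.48-fold and 5.07-fold higher, but at an adjusted p of 0.0762 and 0.0757 they did not pass the threshold of 0.05. In +/lox and C118F/lox mice no gene of the 10 passed, and the estimates for *Hspa1a*, *Hspa1b* and *Dnajb1* were below 0 in both.

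*Dnajb1* stimulates the ATPase of HSP70. In DMSO-treated H77L/lox mice it stood at 77.03, 84.59, 157.9, 167.7, 263.7 and 411.6 TPM, and in Btz-treated H77L/lox mice at 252, 482, 688.4, 976, 1099 and 1384 TPM. All but the lowest Btz-treated mouse lay above every DMSO-treated mouse. The log2 fold change was 2.11 ± 0.44 (SE; adjusted p = 0.0361 from limma). *Dnajb4*, the other J-domain gene of the group, had 102.9, 107.2, 116.9, 120.1, 129.5 and 160.4 TPM under DMSO and 173.4, 182.9, 187.9, 208, 218 and 227 TPM under bortezomib, so that the groups did not overlap. Its log2 fold change was 0.70 ± 0.10 (adjusted p = 0.0184), and it was the only one of the 10 without overlap, against 1.22% of all genes tested that were higher without overlap.

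These 2 genes were 2 of 10, whereas 125 of the 10813 genes tested, or 1.16%, passed in either direction and 45, or 0.416%, were higher. All 10 genes had a positive estimate, with a median log2 fold change of 0.53 against 0.00 over all genes. At an unadjusted p under 0.05 there were 7 of the 10, and 2161 of all genes. Both calls depended on single mice. *Dnajb1* lost its call in 7 of the 12 fits that each left out 1 mouse, namely H77L/lox Btz mice 2, 3, 4, 5 and 6 and DMSO mice 2 and 4, with log2 fold changes from 1.89 to 2.40 over the 12 fits and adjusted p up to 0.0879. *Dnajb4* lost it without Btz mice 2, 3, 4 or 6, with an adjusted p of 0.0505, 0.0552, 0.057 and 0.0769 and log2 fold changes of 0.72, 0.69, 0.68 and 0.74 in turn. Without the filter on low values neither passed, at an adjusted p of 0.112 for *Dnajb1* and 0.0829 for *Dnajb4*, and with all 35 mice in 1 fit *Dnajb4* did not, at 0.138.

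*Hspa1a* had 46.07, 94.44, 229.9, 330.4, 482.5 and 837.4 TPM in DMSO-treated H77L/lox mice and 412.8, 797.9, 947, 1191, 1343 and 2233 TPM after bortezomib. *Hspa1b* had 52.74, 85.04, 247.4, 399, 605.3 and 1221 TPM under DMSO and 572.4, 1077, 1231, 1541, 1701 and 2897 TPM after bortezomib. Both genes were low or high in the same mice, and the groups overlapped, with 4 of 6 Btz-treated mice above all DMSO-treated mice for each gene. The log2 fold changes were 2.16 ± 0.58 for *Hspa1a*, 2.34 ± 0.63 for *Hspa1b* and 2.26 ± 0.61 for their summed level (adjusted p = 0.0756). Without DMSO mouse 3, the highest of its group, the changes were 2.54 and 2.78 and both genes passed, with an adjusted p of 0.0499 and 0.044.

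Of the remaining genes in H77L/lox mice, *Hsph1*, the nucleotide exchange factor of HSP70, had a log2 fold change of 0.65 ± 0.18 (adjusted p = 0.0762), from a median of 56.93 to 81.12 TPM. *Hspb8* had 0.28 ± 0.10 and *Hsp90aa1* 0.41 ± 0.15, with an adjusted p of 0.15 and 0.162. *Hspa8*, *Hspb1* and *Bag3* had 0.37 ± 0.19, 0.39 ± 0.24 and 0.36 ± 0.24, with an adjusted p of 0.286, 0.392 and 0.428. *Bag3* stood at a median of 48.41 TPM before and 63.92 TPM after bortezomib, and only 1 Btz-treated mouse exceeded all DMSO-treated mice.

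**Figure D2:**
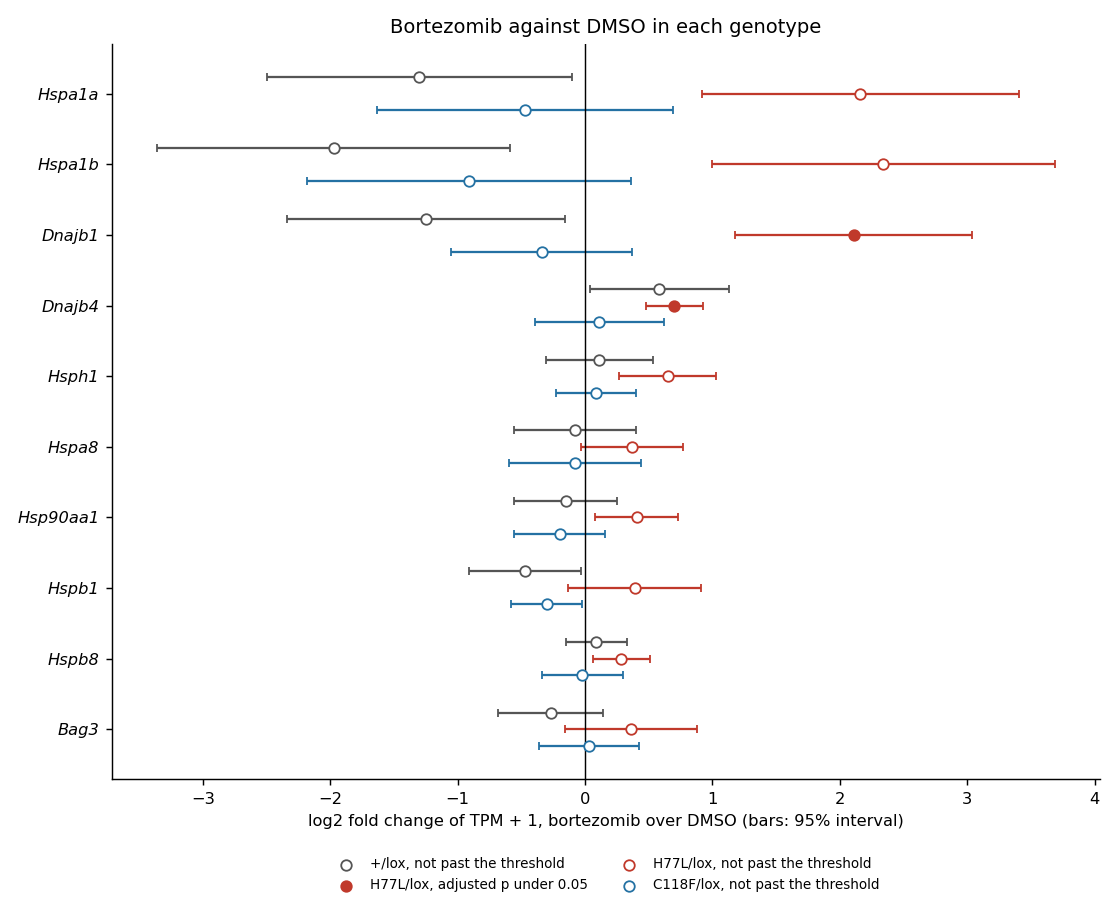
Log2 fold change of TPM + 1 for bortezomib over DMSO (horizontal axis) for the 10 genes in each genotype, with 95% intervals from limma and filled points for an adjusted p under 0.05. In H77L/lox mice all 10 estimates lie right of 0 and those of *Dnajb1* and *Dnajb4* are filled, and in the other genotypes no point is filled.

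In +/lox mice the levels under DMSO were split. *Hspa1a* stood at 87.96, 101.4 and 187 TPM in 3 mice and at 680.1, 812.9 and 1091 TPM in the other 3, and *Dnajb1* at 65.02, 99.5 and 141.8 TPM in 3 mice and at 361.2, 558.1 and 970.2 TPM in 3. After bortezomib all 6 mice were low, with 70.43 to 202.8 TPM of *Hspa1a* and 73.5 to 144 TPM of *Dnajb1*, below each of the 3 high DMSO-treated mice. Those 3 were set apart by these same levels, and the groups overlapped as a whole. Only 1 of the 6 Btz-treated mice lay below every DMSO-treated mouse for *Hspa1a*, and 0 did for *Dnajb1*. The summed immediate early genes, a sign of handling and dissociation of the cells, stood between 12920 and 59570 TPM in the DMSO-treated and between 39780 and 68190 TPM in the Btz-treated +/lox mice, and their part in these levels was not tested. The log2 fold changes were -1.30 ± 0.57 for *Hspa1a*, -1.97 ± 0.65 for *Hspa1b* and -1.25 ± 0.51 for *Dnajb1*, with an adjusted p of 0.573, 0.56 and 0.563. The sum of *Hspa1a* and *Hspa1b* had -1.58 ± 0.58 (adjusted p = 0.56). *Dnajb4* had 0.58 ± 0.26, from a median of 129.7 to 199.7 TPM (adjusted p = 0.573). With limma, 0 of 10 genes and 0 of the 10659 genes tested (0%) passed, and at an unadjusted p under 0.05 there were 5 of the 10 and 923 of all genes.

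In C118F/lox mice *Hspa1a* stood between 72.08 and 548.2 TPM under DMSO and at 88.28, 103.6, 172.1, 385.1 and 496.1 TPM after bortezomib, so the groups overlapped almost in full. *Dnajb1* had a median of 132.9 TPM under DMSO and 108.9 TPM after bortezomib, and *Dnajb4* had 138.9 and 135.4 TPM. The estimates ranged from -0.91 ± 0.59 for *Hspa1b* to 0.11 ± 0.23 for *Dnajb4*. With limma, 0 of the 10 and 0 of 10814 genes (0%) passed, and at an unadjusted p under 0.05 there were 1 of the 10, *Hspb1* at -0.30 ± 0.13, and 634 of all genes.

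Whether the response to bortezomib itself differed between genotypes was tested as an interaction. Between H77L/lox and +/lox mice, the difference of the log2 fold changes was 3.46 ± 0.89 for *Hspa1a*, 4.32 ± 0.99 for *Hspa1b* and 3.36 ± 0.74 for *Dnajb1*, each with an adjusted p of 0.0814, and 3.84 ± 0.92 for the sum of both HSP70 genes (adjusted p = 0.0823). With limma, 0 of 10 genes and 0 of 11163 genes (0%) passed, against 5 of the 10 and 2037 genes at an unadjusted p under 0.05, and all 10 differences were positive with a median of 0.59. *Dnajb1* passed without +/lox Btz mouse 1 or without +/lox DMSO mouse 4 or 5, with an adjusted p of 0.036, 0.0422 and 0.0382, and *Hspa1b* passed without the first and the last of these, with 0.0395 and 0.0466. *Dnajb4*, which was called in H77L/lox mice, had a difference of only 0.12 ± 0.30 from +/lox mice (adjusted p = 0.866; 95% interval, -0.50 to 0.74).

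Between H77L/lox and C118F/lox mice, the difference of the responses was 2.45 ± 0.60 for *Dnajb1* (adjusted p = 0.587), 2.63 ± 0.87 for *Hspa1a* and 3.25 ± 0.95 for *Hspa1b* (adjusted p = 0.65 for both), and it was 2.96 ± 0.91 for their sum (adjusted p = 0.65). With limma, 0 of the 10 and 0 of 11046 genes (0%) passed, and 7 of the 10 and 840 of all genes had an unadjusted p under 0.05. Between C118F/lox and +/lox mice the differences ranged from -0.47 ± 0.38 for *Dnajb4* to 1.06 ± 0.97 for *Hspa1b*. There 0 of the 10 and 0 of 11197 genes (0%) passed with limma, and 0 of the 10 and 560 of all genes had an unadjusted p under 0.05. A response past the threshold in H77L/lox mice alone is therefore not shown to differ from that in the other genotypes.

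The second question was how the knock-in lines differed from +/lox mice without bortezomib. Under DMSO the small heat shock protein gene *Hspb1*, *Hsp90aa1* and *Bag3* were higher in both lines, and the inducible HSP70 genes and *Dnajb1* were not separated from +/lox mice. *Hspb1* had 401.1, 407.2, 463.9, 570.3, 670.1 and 884.8 TPM in +/lox mice. In H77L/lox mice it had 674.3, 930, 1002, 1402, 1450 and 1600 TPM, and in C118F/lox mice 975.7, 1077, 1093, 1121, 1188 and 1442 TPM. No C118F/lox mouse and 1 H77L/lox mouse lay within the range of the +/lox mice. The share of all genes without such an overlap was not counted. The log2 fold change was 1.05 ± 0.23 in H77L/lox mice (adjusted p = 0.00212) and 1.07 ± 0.18 in C118F/lox mice (adjusted p = 4.8e-04).

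*Bag3* stood at 22.37, 22.43, 24.4, 24.51, 33.88 and 48.24 TPM in +/lox mice, at 39.11, 41.16, 43.03, 53.79, 71.63 and 89.88 TPM in H77L/lox mice and at 37.56, 38.32, 46.3, 47.22, 61.26 and 80.34 TPM in C118F/lox mice. Apart from 1 +/lox mouse, every +/lox mouse lay below every knock-in mouse. The log2 fold change was 0.91 ± 0.23 (adjusted p = 0.00481) and 0.81 ± 0.22 (adjusted p = 0.0119). *Hsp90aa1*, the stress-inducible HSP90 gene, had medians of 251.1, 395.4 and 368.6 TPM in +/lox, H77L/lox and C118F/lox mice, with log2 fold changes of 0.52 ± 0.18 (adjusted p = 0.0305) and 0.68 ± 0.19 (adjusted p = 0.0158). Its groups overlapped in both lines, with 3 of 6 H77L/lox and 2 of 6 C118F/lox mice above all +/lox mice.

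These were 3 of 10 genes in each line, all higher. Over all genes, 44.8% passed between H77L/lox and +/lox mice, 22.4% of them higher, and 30.4% passed between C118F/lox and +/lox mice, with 13.7% higher (all as shares of the genes tested). Of the other 7 genes, *Hspb8* came nearest to the threshold in H77L/lox mice, with -0.27 ± 0.11 (adjusted p = 0.0684), and it passed at -0.34 without +/lox mouse 1 (adjusted p = 0.018). *Hspa1a*, *Hspa1b* and *Dnajb1* had estimates between -0.59 and 0.14 with standard errors between 0.56 and 0.77. *Hsp90aa1* lost its call in H77L/lox mice in 7 of 12 fits that left out a mouse, namely H77L/lox mice 1, 3, 4 and 6 and +/lox mice 1, 4 and 6, with an adjusted p of up to 0.0713, and also without the filter on low values, with 0.52 and an adjusted p of 0.0831. When the running number of the mouse in the titles was added to the fit, the log2 fold changes in H77L/lox mice were 0.61 for *Hspb1*, 0.51 for *Bag3* and 0.24 for *Hsp90aa1*, and none passed (adjusted p = 0.0887, 0.158 and 0.432). In C118F/lox mice *Hspb1* alone passed in that fit, with 1.00 (adjusted p = 0.00356). The summed mesangial and vascular smooth muscle genes differed between the same groups under DMSO. Their medians were 60.22 TPM in +/lox, 739 TPM in H77L/lox and 821.7 TPM in C118F/lox mice. *Des*, the most abundant gene of this list and one also made by injured podocytes, had medians of 29.93, 477.9 and 555.5 TPM in turn. The part of these genes in the differences was not tested.

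**Figure D3:**
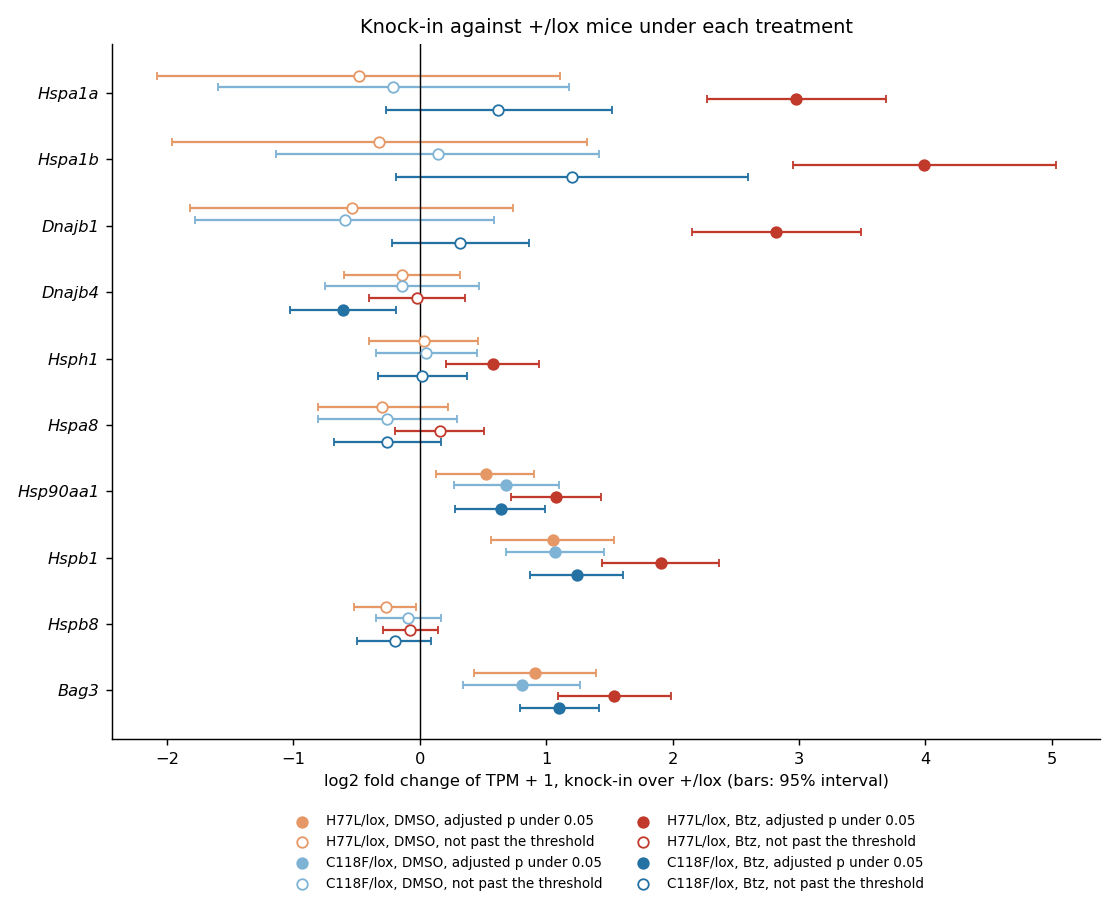
Log2 fold change of TPM + 1 for a knock-in line over +/lox mice (horizontal axis) for the 10 genes under DMSO and under bortezomib, with 95% intervals from limma and filled points for an adjusted p under 0.05. *Hspb1*, *Hsp90aa1* and *Bag3* are filled in all 4 comparisons, and *Hspa1a*, *Hspa1b* and *Dnajb1* only for Btz-treated H77L/lox mice, at 2.98, 3.99 and 2.82.

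The lines were compared with +/lox mice under bortezomib as well. In Btz-treated H77L/lox mice 7 of the 10 genes were higher than in Btz-treated +/lox mice, and *Hspa1a*, *Hspa1b*, *Dnajb1*, *Hspb1*, *Bag3* and *Hsp90aa1* did not overlap between the groups. *Hspa1b* had 19.27, 40.04, 96.34, 156.4, 163.4 and 167.5 TPM in +/lox mice, below the lowest H77L/lox mouse at 572.4 TPM. The log2 fold change was 3.99 ± 0.49 (adjusted p = 1.7e-05), and it was 2.98 ± 0.33 for *Hspa1a* (adjusted p = 6.9e-06), 3.44 ± 0.38 for the sum of both (adjusted p = 5.4e-06) and 2.82 ± 0.32 for *Dnajb1* (adjusted p = 6.9e-06). For these genes the estimate for bortezomib was below 0 in +/lox mice and above 0 in H77L/lox mice, and both enter this difference.

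*Hspb1* stood between 247.2 and 515.7 TPM in Btz-treated +/lox mice and between 1115 and 2969 TPM in H77L/lox mice, with a log2 fold change of 1.91 ± 0.22 (adjusted p = 9.7e-06). *Bag3* stood between 19.26 and 32.67 TPM in +/lox mice and between 48.51 and 127.9 TPM in H77L/lox mice, with 1.54 ± 0.21 (adjusted p = 5.1e-05). *Hsp90aa1* had 1.08 ± 0.17 (adjusted p = 1.6e-04) and *Hsph1* 0.58 ± 0.17 (adjusted p = 0.0232). *Hsph1* lost its call without H77L/lox mice 1 or 5 or +/lox mice 3 or 4, with an adjusted p of up to 0.0559, and also without the filter (0.072) or with the mouse number in the fit (0.0726). The share called among all 10805 genes was 23.6%, and 12.5% were called higher, while 6.8% were higher without overlap. *Hspa8*, *Hspb8* and *Dnajb4* had estimates of 0.16 ± 0.17, -0.08 ± 0.10 and -0.02 ± 0.18. Of the 13 immediate early genes 3 were lower in this comparison, *Dusp1*, *Jund* and *Junb*, and 0 were higher. Under DMSO 3 were higher and 1 lower in H77L/lox mice, and 1 higher and 1 lower in C118F/lox mice.

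In Btz-treated C118F/lox mice, compared with +/lox mice, *Hspb1*, *Bag3* and *Hsp90aa1* were higher, with log2 fold changes of 1.24 ± 0.17 (adjusted p = 9.0e-05), 1.10 ± 0.15 (adjusted p = 7.0e-05) and 0.64 ± 0.17 (adjusted p = 0.0106). The 5 C118F/lox mice had 798.6, 850.2, 925.7, 946.4 and 1155 TPM of *Hspb1* and 45.05, 48.48, 51.99, 52.91 and 56.95 TPM of *Bag3*, all above the 6 +/lox mice. *Dnajb4* was lower, with 117.2 to 147.3 TPM against 126.6 to 341.7 TPM and a log2 fold change of -0.61 ± 0.20 (adjusted p = 0.0318). *Dnajb4* lost this call without C118F/lox mice 2 or 5 or +/lox mice 3 or 4, with an adjusted p of up to 0.0693, and without the filter (0.0867). Of 13 immediate early genes 6 were lower in the same comparison, *Dusp1*, *Jun*, *Btg2*, *Jund*, *Junb* and *Fos*, by log2 fold changes between -0.46 ± 0.14 and -1.60 ± 0.33, and *Atf3* had 0.02 ± 0.44. Their sum had a median of 39780 TPM in C118F/lox and 62980 TPM in +/lox mice, and its part in the difference of *Dnajb4* was not tested. Of all genes, 27.5% passed, 15.1% higher and 12.4% lower. Genes higher without overlap were not counted in this comparison. *Hspa1a* and *Hspa1b* had 0.62 ± 0.42 and 1.20 ± 0.65 (adjusted p = 0.296 and 0.191). With the mouse number in the fit *Hspa1a* had 1.68 and passed, at an adjusted p of 0.0113, and *Hsp90aa1* had 0.38 and did not, at 0.221.

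The third question was whether the lines differed from each other. Under DMSO the 10 genes had estimates between -0.10 and 0.46 for C118F/lox over H77L/lox mice. With limma, 0 of the 10 and 0 of 10809 genes (0%) passed, and 0 of the 10 and 416 of all genes had an unadjusted p under 0.05. The intervals were wide for *Hspa1a* (-1.10 to 1.65) and *Hspa1b* (-0.96 to 1.89) and narrow for *Hspb1* (-0.39 to 0.43).

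After bortezomib all 10 genes had a lower estimate in C118F/lox than in H77L/lox mice, with a median of -0.57 against 0.02 over all genes, and 4 of them passed. *Dnajb1* was lower by a log2 fold change of -2.50 ± 0.39 (adjusted p = 0.0105), with 78.49, 85.4, 108.9, 171.5 and 236.6 TPM in C118F/lox mice, all below the lowest H77L/lox mouse at 252 TPM. *Dnajb4* was lower by a log2 fold change of -0.59 ± 0.09 (adjusted p = 0.0105), again without overlap, and *Hspa1a* and *Hspa1b* had -2.36 ± 0.46 (adjusted p = 0.0251) and -2.79 ± 0.54 (adjusted p = 0.0238). The sum of both HSP70 genes had -2.58 ± 0.50 (adjusted p = 0.0236). Of the 10803 genes tested, 0.972% passed and 0.259% were called lower. How many of them were lower without overlap was not counted. The remaining genes did not pass, *Hsph1* with -0.55 ± 0.15 (adjusted p = 0.0911), *Hsp90aa1* with -0.44 ± 0.13 and *Hspb1* with -0.67 ± 0.21 among them. Of 11 podocyte markers 2 were lower in the same comparison, *Cdkn1c* and *Synpo*, and 0 were higher. The part of these markers in the chaperone differences was not tested.

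The calls of the 2 HSP70 genes between the lines depended on single mice, while their estimates stayed below 0. *Hspa1a* lost its call without C118F/lox mice 3, 4 or 5 or H77L/lox mice 2, 4 or 6, and *Hspa1b* without the same mice except C118F/lox mouse 5, with adjusted p of up to 0.0766 and 0.0641. In the fits without a call the log2 fold changes lay between -2.07 and -2.43 for *Hspa1a* and between -2.49 and -2.85 for *Hspa1b*. Both also lost their calls when mice whose numbers share all digits but the last were treated as a block, with -2.29 and -2.71 (adjusted p = 0.0588 for both). *Dnajb1* and *Dnajb4* kept theirs in all 11 such fits. Without the filter or with the mouse number in the fit, *Dnajb4* alone of the 10 passed, and with all 35 mice in 1 fit *Dnajb1* alone did; the other adjusted p-values lay between 0.0658 and 0.329. The size of the difference varied with the planned settings other than leaving out a mouse. Log2 fold changes ranged there from -2.37 to -1.74 for *Hspa1a*, from -2.81 to -2.07 for *Hspa1b* and from -2.51 to -2.06 for *Dnajb1*. The comparisons share groups, so each Btz-treated H77L/lox mouse enters several of them.

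Against all 29 other mice, the Btz-treated H77L/lox group was not set apart in every animal. For *Hspa1b* 4 of its 6 mice exceeded every other mouse, for *Hspa1a* and *Dnajb1* 3 did, and for *Hsph1* 2 did. Conversely 8 other mice had as much *Hspa1b* as the lowest of the 6, and 6 had as much *Dnajb1*. Mouse 1 of this group had the highest level of all 35 mice in *Hspa1a*, *Hspa1b*, *Dnajb1*, *Hspb1*, *Hsp90aa1*, *Hsph1* and *Bag3*. The 10 genes together summed to a median of 6771 TPM in this group, against medians between 2766 and 3842 TPM in the other groups.

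Levels of several of the 10 genes were correlated across mice. Over all 35 mice, and among 9426 genes with a mean of at least 5 TPM, the gene most like *Hspa1a* was *Hspa1b* (Pearson r of log2 levels 0.962), followed by *Dnajb1* (0.926) and *Phlda1* (0.747), and *Hspa1a*, *Hspa1b* and *Dnajb1* held the first places of each other's lists. Once the mean of each group was taken away, *Hspa1a* still had r = 0.954 with *Hspa1b* and 0.88 with *Dnajb1*. For *Hspb1* the most like genes were *Hsp90aa1* (0.893), *Bag3* (0.876) and *Rtn4rl1* (0.852), and these values over all mice include the differences between the groups. Within groups *Hspb1* had r = 0.733 with *Hsp90aa1*, 0.73 with *Hsph1*, 0.661 with *Hspa1b*, 0.655 with *Dnajb1*, 0.653 with *Hspa1a*, 0.593 with *Hspa8* and 0.588 with *Bag3*. Among the 10 genes the highest r of *Bag3* within groups was 0.673 with *Dnajb1*, followed by 0.659 with *Hsp90aa1*, and that of *Hsp90aa1* was 0.783 with *Hsph1*. These correlations describe the same libraries, whose levels are shares of 1 total, and *Hspa1a* and *Hspa1b* have much of their sequence in common.

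**Figure D4:**
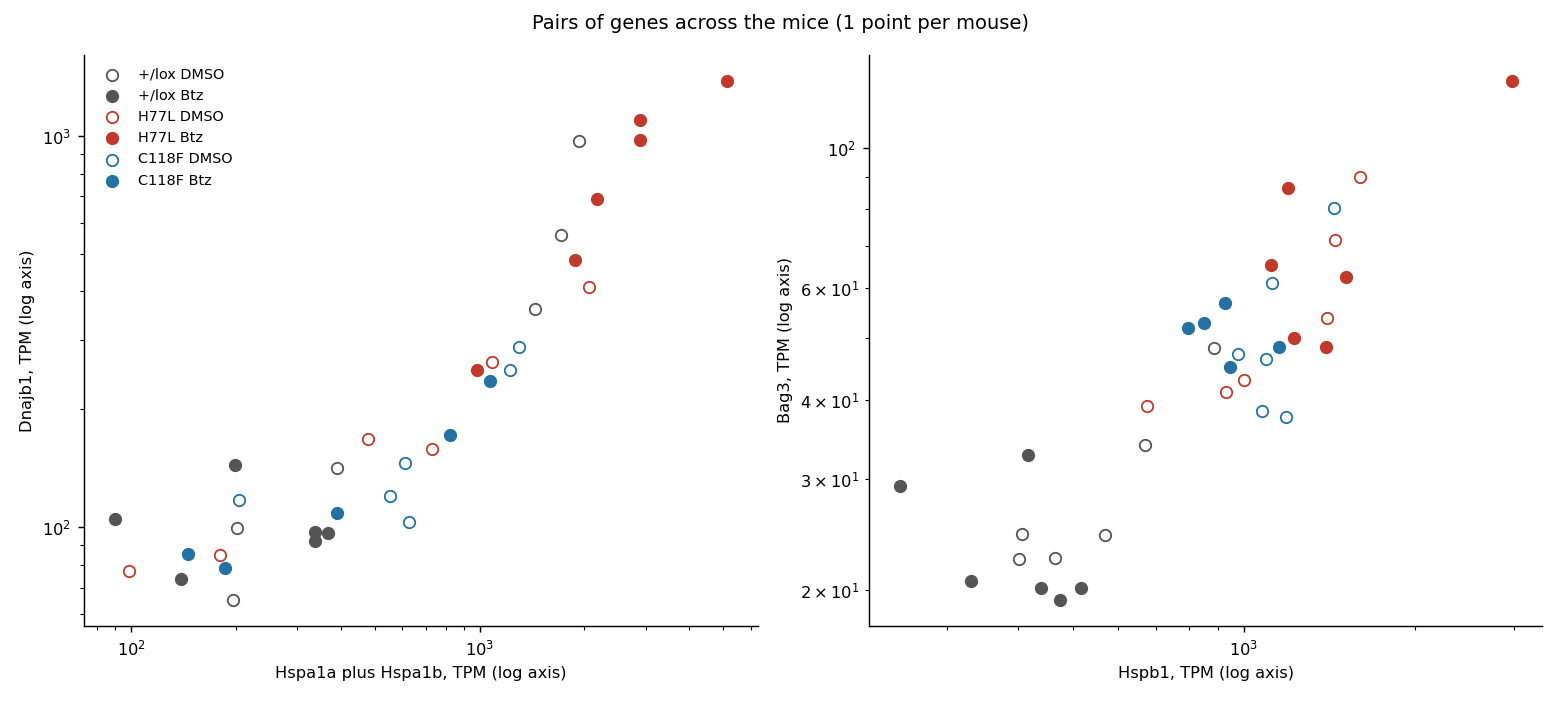
Levels of 2 pairs of genes in TPM, 1 point per mouse, on log axes, with *Dnajb1* against the sum of *Hspa1a* and *Hspa1b* at the left and *Bag3* against *Hspb1* at the right. At the left, mice of every group lie along 1 band, from a sum of 89.7 TPM to 5130 TPM, and at the right most +/lox mice lie below the knock-in mice on both axes.

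Among the genes most like *Dnajb4* were *Ccn1* (0.838) and *Adm* (0.827), and the r of *Dnajb4* within groups was 0.49 with *Hspa1a* and 0.107 with *Hspb1*. With the immediate early genes *Atf3*, *Jun* and *Fos* it was 0.868, 0.608 and 0.458 within groups, where *Hspa1a* had 0.404, 0.579 and 0.493. *Hsph1* was most like *Dnaja1* (0.754), *Hspd1* (0.735) and *Stip1* (0.721), 3 further HSF1 targets. *Hspa8* was most like *Hsp90ab1* (0.673), *Hsph1* (0.627) and *Xbp1* (0.618). *Hspb8* was most like *Rpp38* (0.684), *Cmc2* (0.635) and *Vapb* (0.627). *Hsp90aa1* was most like *Hspb1* (0.893), *Bag3* (0.862) and *Taf1a* (0.754), and *Bag3* was most like *Hspb1*, *Hsp90aa1* and *Camk2g* (0.816).

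The wider chaperone network was followed through lists taken from general knowledge. The heat shock factor genes did not pass in any comparison in which they were tested. Of the 3, only 1 was tested between C118F/lox and +/lox mice under DMSO, and 2 or 3 in the other comparisons. *Hsf1* stood between 13.55 and 25.23 TPM in all 35 mice, with a log2 fold change for bortezomib of -0.07 ± 0.12 in H77L/lox mice, and *Hsf2* and *Hsf4* had group medians below 3 TPM. Over all genes, 1.16% passed for bortezomib in H77L/lox mice and 0% in +/lox and C118F/lox mice. Of 17 other HSF1 targets, among them *Hspd1*, *Dnaja1*, *Hsp90ab1* and *Cryab*, all were tested and none passed for bortezomib in any genotype. Their median log2 fold change was 0.18 in H77L/lox mice against 0.00 over all genes, 0.07 in +/lox mice and 0.00 in C118F/lox mice. The most abundant of them, *Cryab*, a small heat shock protein, had -0.15 ± 0.11 for bortezomib in H77L/lox mice. The lists overlap in a few genes, such as *Cryab* and *Hspa4*.

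Also for bortezomib, none of the measured genes passed in any genotype among 8 other HSP70 and HSP110 genes, 6 other small heat shock proteins, 13 other J-domain proteins, 12 cochaperones of HSP70 and HSP90, 9 genes of the BAG family and partners of BAG3, the 8 subunits of the CCT chaperonin and 16 genes of the endoplasmic reticulum stress response. Of these, 6, 3, 13, 12, 9, 8 and 14 were tested in H77L/lox mice, where 1.16% of all genes passed, against 0% in the other genotypes. Of 31 genes of the constitutive 26S proteasome 1 passed, *Psmb6*, which rose in H77L/lox mice with a log2 fold change of 0.34 ± 0.08 (adjusted p = 0.0471). The median of the proteasome list was 0.18 in H77L/lox, 0.00 in +/lox and 0.01 in C118F/lox mice. Of 13 immediate early genes *Nr4a1* rose in H77L/lox mice by 0.72 ± 0.14 (adjusted p = 0.0352). Without H77L/lox Btz mouse 2, 4 or 6, or without the filter, 0 of all genes passed, so *Psmb6* and *Nr4a1* lost their calls there. The summed level of the immediate early genes, led by *Fos*, was high in all groups, with a median of 49640 TPM in DMSO-treated and 45140 TPM in Btz-treated H77L/lox mice. Its part in the chaperone levels was not tested.

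Against +/lox mice, genes of the other lists passed in both directions. Under DMSO, of 17 other HSF1 targets 4 were higher and 2 lower in H77L/lox mice and 2 higher and 2 lower in C118F/lox mice, which is 6 of 17 and 4 of 17 beside the 44.8% and 30.4% called over all genes. Among those of lowest adjusted p were *Ubb*, a polyubiquitin gene, with -0.63 ± 0.11 and *Ier5* with 1.83 ± 0.40 in H77L/lox mice, and *Ier5* with 1.61 ± 0.32, *Fkbp4* with -0.50 ± 0.11 and *Hspa4l* with 0.63 ± 0.17 in C118F/lox mice. After bortezomib 1 gene was higher, the HSP110 family member *Hspa4*, with 0.52 ± 0.10 in H77L/lox and 0.33 ± 0.12 in C118F/lox mice, and 1 was lower, *Ubb*. *Hspb6*, a small heat shock protein of muscle, was higher in 3 of the 4 comparisons, with 1.27 ± 0.40 in H77L/lox mice under DMSO and 1.15 ± 0.20 and 1.39 ± 0.20 in H77L/lox and C118F/lox mice after bortezomib.

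Among J-domain genes *Dnajb5* was higher in all 4 comparisons with +/lox mice, by a log2 fold change between 1.78 ± 0.19 and 2.12 ± 0.26, and *Dnajc7* was lower in all 4. Among the partners of BAG3, *Sqstm1*, the autophagy receptor p62, was higher in all 4, between 0.44 ± 0.13 and 0.70 ± 0.11. *Synpo2* was higher in 3, with 2.25 ± 0.27 and 2.31 ± 0.25 under DMSO, and *Synpo*, its relative in the podocyte cytoskeleton, was lower in all 4, between -1.28 ± 0.11 and -2.44 ± 0.23. *Unc45a*, a cochaperone of HSP90, was higher in H77L/lox mice, with 0.31 ± 0.12 under DMSO and 0.44 ± 0.09 after bortezomib. Of the 8 CCT subunits *Cct5* and *Cct7* were lower in both lines under DMSO. Of the 31 proteasome genes 12 were lower and 3 higher in H77L/lox mice under DMSO, and 4 were lower and 1 higher in C118F/lox mice, with *Psmb3* at -0.53 ± 0.08 and -0.54 ± 0.15. Over all genes 2455 of 10964 were lower and 2452 higher in H77L/lox mice, and 1810 of 10899 were lower and 1498 higher in C118F/lox mice. After bortezomib 1 of the 31 proteasome genes was higher in H77L/lox mice, where 12.5% of all genes were. In C118F/lox mice 1 was higher and 3 were lower, beside 15.1% and 12.4% of all genes.

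Of the 14 genes of the endoplasmic reticulum list tested under DMSO, 3 were higher and 1 was lower in H77L/lox mice under DMSO, and 4 were higher in C118F/lox mice, beside 22.4% and 13.7% of all genes called higher. After bortezomib 4 of 14 were higher in C118F/lox mice, where 15.1% of all genes were, and in H77L/lox mice 0 of 13 were higher and 1 was lower, *Pdia4*, a disulfide isomerase. *Hspa5*, the HSP70 of the endoplasmic reticulum, was higher by 0.68 ± 0.19 in H77L/lox and 0.81 ± 0.20 in C118F/lox mice under DMSO. Between Btz-treated C118F/lox and H77L/lox mice *Hspa5* was higher by 0.87 ± 0.16 (adjusted p = 0.0207) and *Dnajb9*, a J-domain protein of the same compartment, by 0.80 ± 0.14 (adjusted p = 0.0145), whereas *Dnajb1*, *Dnajb4*, *Hspa1a* and *Hspa1b* of the cytosol were lower in that comparison. They were 2 of 14 genes, beside 77 of 10803 genes called higher. The calls over all genes fell from 105 to 13 without the filter and to 24 with the mouse number in the fit. Whether *Hspa5* and *Dnajb9* kept their calls there was not tested.

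Levels of podocyte markers differed between genotypes as well. Of 11 podocyte markers 9 were lower in each line under both treatments, and *Clic5* was higher in both after bortezomib. Over all genes, 2455 of 10964 were lower in H77L/lox and 1810 of 10899 in C118F/lox mice under DMSO. After bortezomib 1190 of 10805 and 1349 of 10916 genes were lower in turn. The podocyte markers summed to a median of 11740 TPM in DMSO-treated and 14030 TPM in Btz-treated H77L/lox mice, and of 9751 and 12700 TPM in C118F/lox mice. *Des* (desmin), counted here among mesangial genes and also made by injured podocytes, was higher by 3.81 ± 0.23 and 4.06 ± 0.28 under DMSO. In H77L/lox mice it fell with bortezomib by 0.52 ± 0.11 on the log2 scale (adjusted p = 0.0437). That fall lost its call without H77L/lox Btz mouse 2, 4 or 6, or without the filter, where 0 of all genes passed. *Pdgfrb*, a receptor of mesangial cells and pericytes, was higher in all 4 comparisons with +/lox mice, by a log2 fold change between 3.10 ± 0.37 and 3.90 ± 0.28, and the smooth muscle actin gene *Acta2* was higher in C118F/lox mice after bortezomib, by 1.99 ± 0.53. *Gata3* and *Itga8* of the same list were at 0 in 14 and 10 of the 35 mice. After bortezomib the list summed to a median of 58.45 TPM in +/lox, 504.7 TPM in H77L/lox and 791.5 TPM in C118F/lox mice. *Csf1r* was also higher in all 4 comparisons, by between 0.81 ± 0.24 and 1.69 ± 0.26. *Lyz2*, which led the leukocyte list, was lower in C118F/lox than in +/lox mice under DMSO. The leukocyte sum had medians of 32.8 and 7.191 TPM in the DMSO- and Btz-treated +/lox mice and between 12.47 and 19.38 TPM in the knock-in groups. *Cldn1*, the most abundant gene of the parietal epithelium list, was higher by 2.01 ± 0.19 and 1.70 ± 0.21 under DMSO. *Pax8*, the other gene of that list tested there, was also higher in both lines under DMSO. After bortezomib *Cldn1* alone of that list was higher, again in both lines. *Krt19* of that list was at 0 in 27 of the 35 mice. The part of all these markers in the differences of *Hspb1*, *Hsp90aa1* and *Bag3* was not tested.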

How the data were processed

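RNA of podocytes sorted from 35 mice was sequenced as poly(A) libraries from 1 end. The authors trimmed adapters with Trim Galore 0.6.7, aligned reads to GRCm39 with STAR, keeping 1 placement of a read with several, and counted them with featureCounts 1.6.3. They deposited TPM, and the step from counts to TPM is not given in the sources used here.

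Of 33292 gene identifiers, 32776 were named with GENCODE vM39 and 516 could not be. Values were tested as log2(TPM + 1) with limma 3.58.1 (lmFit, eBayes with trend, R 4.3.3). A fit held the mice of the groups it compared and the genes over 1 TPM in all mice of one of them or more. Benjamini-Hochberg adjustment ran over all such genes, and calls were made under 0.05. Fold changes are on the log2(TPM + 1) scale and understate changes of low genes; errors are standard errors. Other settings were a pseudocount of 0.1, no filter, 1 fit of all mice, size factors, the mouse number as a covariate, stricter cutoffs and each mouse left out in turn. The summed HSP70 level, and a random block of mice with neighbouring numbers (duplicateCorrelation), were added after the data were seen. Reads were recovered as whole multiples, within 0.01 reads, for 23940 of 23943 genes, at a searched gene length for 19237. These estimates served for depth only.

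The 10 genes and all gene lists were chosen with earlier results of these data known. Named genes are the 10, up to 3 genes of lowest adjusted p under 0.05 per list and comparison, the heat shock factors, the 3 genes most like each of the 10 and the most abundant gene of each marker list; other genes named were picked after their values were seen. *Ddit3*, with 2 identifiers, was left out, and a few items that the rule names are not reported here. Python 3.11.15, numpy 2.4.6, pandas 2.3.3 and matplotlib 3.10.9 were used besides. Mice are taken as separate animals from their numbers in the labels.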

Additional observations from a re-analysis of the deposited data

Results flagged for a closer look

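Within groups of 5 or 6 mice, 3 of the 60 combinations of gene and group held a mouse that stood apart from the rest by Dixon's criterion, and chance gives about 1 in 20. *Hspb1* had 2969 TPM in Btz-treated H77L/lox mouse 1, and the other 5 mice of the group lay between 1115 and 1512 TPM. *Hsp90aa1* had 699.9 TPM in the same mouse, against 406.3 to 485.7 TPM in the others. *Hsp90aa1* had 232.7 TPM in DMSO-treated H77L/lox mouse 2, against 347.2 to 438.6 TPM in the others. Without Btz mouse 1, the log2 fold change between Btz-treated H77L/lox and +/lox mice was 1.70 for *Hspb1* and 0.97 for *Hsp90aa1*, and both still passed.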

How the results depend on the processing

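Of the values of the 10 genes in the 12 comparisons, no called value changed sign. Uncalled estimates near 0 did, such as that of *Hspa1a* between C118F/lox and +/lox mice under DMSO, -0.21 and between -0.58 and 0.17 with each mouse left out. Under the other settings, with the HSP70 sum counted as one of them, 807 kept their side of the threshold, 44 lost a call and 1 gained one, and with each mouse left out, which was not run for the sum, 1705 kept it, 37 lost a call and 8 gained one. The number of the 10 genes called for bortezomib in H77L/lox mice was 2, and it was 0 without the filter, 1 with all 35 mice in 1 fit and 0 at the strict cutoffs (adjusted p under 0.001 and a log2 fold change beyond 2). Between H77L/lox and +/lox mice under DMSO 3 became 2 without the filter, 0 with the mouse number as a covariate and 0 at the strict cutoffs. For C118F/lox mice under DMSO 3 became 1 with the covariate and 0 at the strict cutoffs. Between Btz-treated H77L/lox and +/lox mice 7 became 3 at the strict cutoffs, and for Btz-treated C118F/lox mice 4 became 0. Without the filter *Hsph1* lost its call in the first of these comparisons and *Dnajb4* in the second. Between the Btz-treated lines 4 became 1 without the filter, 1 with all mice in 1 fit, 1 with the covariate, 0 at the strict cutoffs and 2 with the number block described here last. The strict cutoffs ask for more by construction, and the filter sets how many genes are tested; for the other settings the cause was not tested. A pseudocount of 0.1 and size factors changed none of these counts. With each mouse left out, the counts ranged from 0 to 4 for bortezomib in H77L/lox mice, from 2 to 3 and from 3 to 3 for H77L/lox and C118F/lox under DMSO, from 6 to 7 and from 3 to 4 after bortezomib, from 2 to 4 between the Btz-treated lines and from 0 to 2 for the interaction of H77L/lox and +/lox mice, and were 0 in the other 5 comparisons. Over all genes tested, the call for bortezomib in H77L/lox mice held 125 genes, 0 without the filter, 58 with all mice in 1 fit, and between 0 and 270 with each mouse left out. That between the Btz-treated lines held 105 genes, 13 without the filter, 30 with all mice in 1 fit, 24 with the covariate, 20 with the number block and between 35 and 279 with a mouse left out. For H77L/lox under DMSO 4907 genes became 2873 with the covariate, for bortezomib in C118F/lox mice 0 became 31 with all mice in 1 fit, and the interaction of H77L/lox and +/lox mice held 0 genes and up to 275 with a mouse left out. No paired analysis was possible because the mouse numbers in the titles are unique, and the labels do not say whether neighbouring numbers mark a litter or a day. Treating mice that share all digits of their number but the last as a random block, a setting chosen after the data were seen, gave a correlation of 0.193 within blocks over all 35 mice and changed the number of the 10 genes called in no comparison but that of the Btz-treated lines. Depth limits low genes such as *Hsf2* more than the 10 genes.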
